A study of Drosophila melanogaster with 4 samples.

Results

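Long stretches of chromosome in which no H3K4me2 region was listed are described here, in nuclei from heads of adult fruit flies. H3K4me2 is histone H3 with 2 methyl groups on lysine 4. The stretches were chosen by the region ends in the authors' combined list, which covers both ChIP replicates together. On arms 2L, 3L, 3R and X, each gap of at least 50 kb (50000 bp) between the end of one region and the start of the next was taken. This gave 434 stretches among 4272 gaps between neighbouring regions. Their number and length are therefore a description and carry no test.

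All libraries are from Drosophila melanogaster of the wild-type strain Oregon-R, at mixed adult stage. Heads were sieved from whole adults, and their crosslinked chromatin went through ChIP-seq with an antibody to H3K4me2. The 4 libraries are 2 H3K4me2 ChIP libraries and 2 input DNA libraries, and the labels assign 1 input to the region list of each ChIP replicate. Whether the replicates are separate collections of flies is not stated, so their SD may measure technical spread alone. Heads hold many cell types at once, so a mark in few cells and a weak mark in many cannot be told apart. Read depth is unknown here.

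Methylation of H3 at lysine 4 is laid down by the enzymes of the COMPASS and Trithorax family, and its dimethylated form is found at promoters, in the bodies of transcribed genes and at enhancers. Fly chromosomes also hold long domains that lack such marks. Among the known kinds are gene-poor silent chromatin, often near the nuclear lamina, Polycomb-repressed developmental genes, which carry methylation at lysine 27, and heterochromatin around centromeres, which carries methylation at lysine 9. None of these other marks was measured here, and no gene annotation or sequence of the files' genome release was at hand, so the stretches carry no gene names, promoters or base sequences.

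The stretches held a large part of each arm although they were a small part of the gaps. They made up 10.2% of the gaps (exact 95% binomial interval 9.27 to 11.1%, counting error only), but 52.5% of all bases in gaps and 40.5% of the 97.9 Mb in the 4 arms. The interval treats gaps as independent, although stretches often followed one another. The replicate lists, at 12.1% and 11.6%, both lay above it, so it does not measure the spread between lists. The median gap of any length was 5726 bp. By arm, 3R had 118 stretches, 2L 114, 3L 111 and X 91. Per Mb of arm this was 4.95 on 2L, 4.52 on 3L, 4.23 on 3R and 4.06 on X. The share of the arm inside stretches followed another order, with 44.7% on 2L, 41.5% on 3L, 39.6% on X and 36.9% on 3R. X thus had the fewest stretches per Mb but a larger share of its length in them than 3R. This went with a longer median stretch on X (80.8 kb) than on 2L (75.8 kb), 3R (73.3 kb) and 3L (72.0 kb).

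Each replicate list gave more and slightly longer stretches than the combined list, which holds more regions. By the same rule there were 474 stretches in replicate 1 and 459 in replicate 2. The share of arm inside them was 48.1% ± 0.0992 on 2L, 45.8% ± 0.463 on 3L, 45.1% ± 1.84 on X and 42.0% ± 0.930 on 3R (SD, n = 2). The order of the arms was thus that of the combined list, but 3L and X differed by less than the spread of X. In replicate 1, X (46.4%) was above 3L (46.1%), and in replicate 2 it was below (43.8% against 45.5%).

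Most stretches were between 50 and 100 kb, with a thin tail of far longer ones. The median was 75.4 kb (quartiles 59.5 and 105.7 kb). At least 100 kb was reached by 124 stretches and at least 200 kb by 15. The 2 shortest members were on 3R at 6534783 to 6585017 (50235 bp) and at 5703541 to 5753817 (50277 bp). The 2 longest gaps just under the limit were on 3L at 21764249 to 21814195 (49947 bp) and on 2L at 6128485 to 6178219 (49735 bp). Positions here and throughout are on FlyBase release 5, counted from 1, and are those of the combined list unless a replicate is named.

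The gap lengths were set beside those that random placement would give. If the regions of an arm, with their own widths, are dropped on it without overlap, the mean number of gaps past any length follows from a closed formula, which needs no draws. For at least 50 kb this mean was 254.4 over the 4 arms, against the 434 observed, a ratio of 1.71. The ratio was 1.95 for X (observed 91, random mean 46.7), 1.84 for 3R (118 and 64.1), 1.64 for 2L (114 and 69.5) and 1.499 for 3L (111 and 74.1). In the replicate lists 3R was ahead of X, with 1.67 against 1.52 in replicate 1 and 1.65 against 1.52 in replicate 2, so the order of these arms depends on the list. The random mean at a fixed length depends on how many regions and uncovered bases an arm has. The ratios therefore do not by themselves rank the arms by departure from random placement. With only the higher-scoring 50% of the combined regions the ratio turned below 1 (0.816), at 473 stretches against a mean of 579.4. That subset keeps fewer regions, which raises the random mean. In the full combined list, the ratio for at least 100 kb was 7.93 (124 against 15.6). By arm it ran from 6.07 on 2L to 13.4 on X in the combined list, from 4.21 on 2L to 8.15 on 3R in replicate 1 and from 4.17 on 3L to 8.28 on X in replicate 2. For at least 200 kb, 15 stretches stood against a random mean of 0.0641.

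The surplus of long gaps came with a surplus of very short ones and a deficit in between. Gaps under 2 kb numbered 1228 against a random mean of 458.3, a ratio of 2.68. Those from 10 to 30 kb numbered 869 against 1640.5 (ratio 0.530), and those from 30 to 50 kb numbered 316 against 528.7 (ratio 0.598). The class from 50 to 100 kb was only slightly over-represented, with 310 against 238.7 (ratio 1.30). Between these classes, at a limit of 30 kb, the total number of longer gaps was 750 against 783.1, so the ratio was below 1 (0.958). The random means are over whole arms, unmappable sequence included, whose part in the ratios was not tested. The replicate lists gave ratios of 1.48 and 1.46 at 50 kb and of 5.56 and 5.80 at 100 kb. For the class from 50 to 100 kb alone their ratios were 1.11 and 1.07, nearer the random mean than in the combined list. These lists hold fewer regions, and their random means were higher (320.6 and 314.3 at 50 kb).

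**Figure D1:**
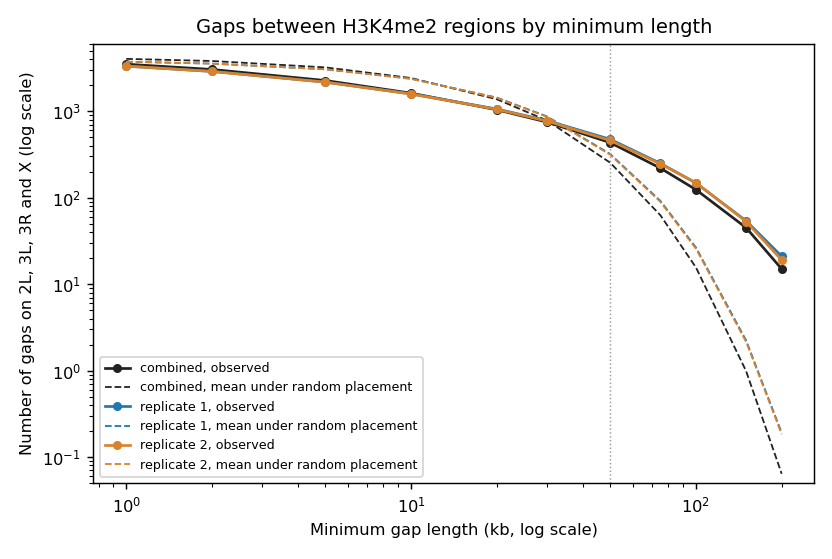
Number of gaps on 2L, 3L, 3R and X (vertical axis, log scale) that reach a minimum length in kb (horizontal axis, log scale), for the combined list and each replicate list. Points joined by solid lines are observed counts and dashed lines are closed-form means under random placement. The vertical dotted line marks 50 kb, where the combined list has 434 gaps against a mean of 254.4. The lines of the combined list cross near 30 kb, and those of each replicate list between 30 and 50 kb.

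Stretches took up more of the centromere side of 3 arms, and less on 3R. Within 2 Mb of the centromere-side end of the assembly, 80.2% of X, 76.7% of 3L and 59.8% of 2L lay inside stretches. The mid-arm shares, with 2 Mb set aside at either end, were 35.4% on X, 40.3% on 3L and 43.9% on 2L. On 3R the centromere side held 24.9%, below its mid-arm share of 37.7%. The replicates gave 80.6% ± 0.0687 on X, 76.98% ± 0.0116 on 3L, 60.6% ± 0.688 on 2L and 25.04% ± 0.166 on 3R for the centromere side. For mid-arm they gave 41.9% ± 2.18, 44.8% ± 0.367, 47.8% ± 0.256 and 42.9% ± 0.930 (SD, n = 2, same order). In each arm the difference between these parts was larger than the spread between the replicates. That spread does not measure how much the share varies from place to place along an arm, which is described below.

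The result on 3R depends on where the line is drawn. Its longest stretch, from 1835011 to 2169497, straddles the 2 Mb line, with its middle base 2.00 Mb from the end of the assembled arm. With the last 3 Mb the share on 3R was 36.6%, and with the last 1 Mb it was 24.6%. On X, 3L and 2L the share was lower over a longer extent, from 82.5%, 90.5% and 76.7% in the last 1 Mb to 67.4%, 67.0% and 52.7% in the last 3 Mb.

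Over the 4 arms together, the centromere side held longer stretches at a like number per Mb, but the arms differed. It held 35 of the 434 stretches, or 4.38 per Mb, against 4.46 per Mb in mid-arm (365 stretches) and 4.25 per Mb on the telomere side (34 stretches). Median length was 100.3 kb on the centromere side, 75.2 kb in mid-arm and 67.6 kb on the telomere side. On X the centromere side had 5.50 stretches per Mb against 3.85 in mid-arm, and a median of 125.2 kb against 80.7 kb. On 3L the number per Mb was 4.50 against 4.72, and the median 114.3 kb against 72.0 kb. On 2L the number was 5.50 against 4.89 per Mb, with medians of 75.5 and 76.3 kb. On 3R it was 2.00 against 4.35 per Mb, with medians of 77.1 and 73.6 kb. The telomere side of 3L had 18.8% of its bases inside stretches, from 5 stretches, the lowest share of the parts compared in the combined list. In the replicates its share was 25.05% ± 1.93 (SD, n = 2), which did not differ beyond the spread from that of the centromere side of 3R. How many bases near the centromeres could not be mapped was not tested.

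Mid-arm sequence also held zones rich in stretches. Each arm was cut into 10 equal segments, counted from the telomere. On 2L segments 7 and 8 were inside stretches to 68.8% and 60.6%, more than segment 10 at the centromere (51.9%). On 3R segment 2 was the richest (54.0%), and on X segment 2 (50.6%) came after segment 10 (76.3%). On 3L segment 10 had 78.7% and segment 9 beside it 19.9%, the lowest of that arm. Among 96 full windows of 1 Mb, each held at least part of a stretch, with a median of 37.3%. More than 50% was inside stretches in 26 windows, of which 9 were on 3L, 6 on 2L, 6 on 3R and 5 on X. The fullest windows of stretch were 3L from 23 to 24 Mb (89.1%, with 8 regions starting there) and, in mid-arm, 2L from 14 to 15 Mb (78.9%, 18 regions). The least in the combined list was 3L from 0 to 1 Mb (5.23%, 53 regions). In the replicate lists 3L from 21 to 22 Mb was lower than that window. The shares were 14.84% against 14.85% in replicate 1 and 9.56% against 14.83% in replicate 2.

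**Figure D2:**
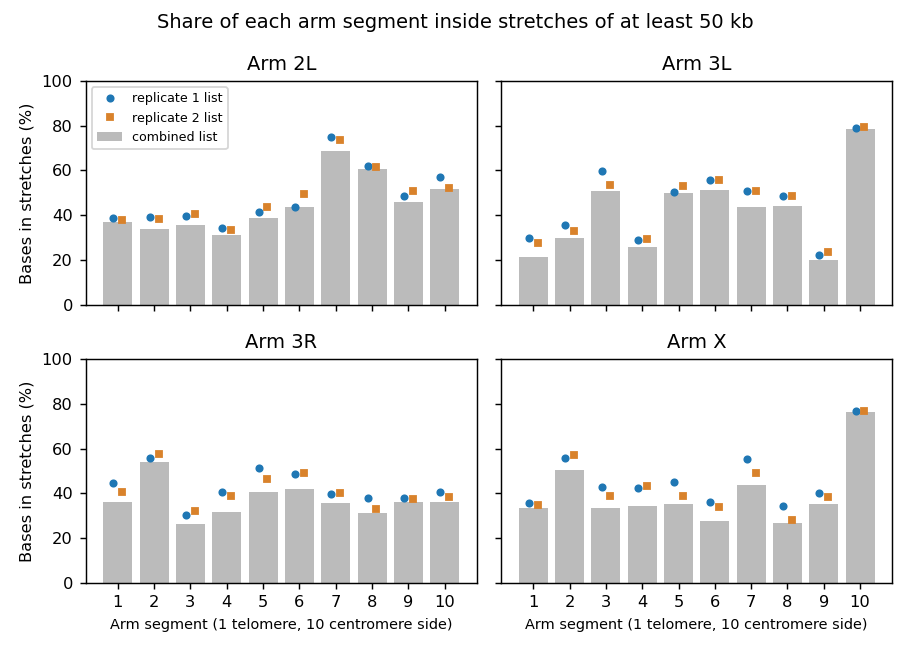
Percent of bases inside stretches of at least 50 kb (vertical axis) in 10 equal segments of arms 2L, 3L, 3R and X, from the telomere (1) to the centromere side (10). Bars are the combined list, circles replicate 1 and squares replicate 2; segment 10 stands highest on 3L (78.7%) and X (76.3%), segment 7 on 2L (68.8%) and segment 2 on 3R (54.0%).

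The longest stretches lay both near centromeres and in mid-arm. Of the 10 longest, 5 were on the centromere side and 5 in mid-arm, and 4 were on X, 3 on 3L, 2 on 3R and 1 on 2L. The 3R stretch that straddles the 2 Mb line is counted among those in mid-arm.

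On 3L the 3 longest all lay on the centromere side. The first ran from 23335937 to 23707799 in the combined list (371.9 kb), and its length was 372.0 kb in replicate 1 and 372.1 kb in replicate 2. The next, from 24225841 to 24530127 (304.3 kb), was 304.4 kb in replicate 1 but 455.6 kb in replicate 2. Replicate 2 had no region at the 1567 bp combined region (score 0.22) on its left border, so it joined the neighbouring stretch. The third, from 23734807 to 24021297 (286.5 kb), was 287.3 and 287.0 kb in replicates 1 and 2. The 2 longest outside the centromere side were at 9970367 to 10174487 (204.1 kb, 205.0 ± 0.195 kb in the replicates) and at 4629475 to 4823559 (194.1 kb, 194.6 ± 0.0757 kb, SD, n = 2).

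On X, the longest was from 21501649 to 21844695 (343.0 kb), with 343.3 kb in replicate 1 and 343.1 kb (343050 bp) in replicate 2. It was followed by 20530453 to 20790391 (259.9 kb), with 262.7 and 262.8 kb in replicates 1 and 2. Both lie on the centromere side. The 2 longest elsewhere on X were at 14219881 to 14473987 (254.1 kb, 254.5 ± 0.208 kb in the replicates) and at 18826551 to 19045197 (218.6 kb, 219.0 ± 0.119 kb, SD, n = 2). For these 4 the replicates differed by less than 1 kb.

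On 3R, the stretch beside the 2 Mb line was the longest, at 334.5 kb, with 334.6 kb in either replicate. The second, from 12589955 to 12810747 (220.8 kb), was part of a single stretch of 329.3 kb in replicate 1 and 329.6 kb in replicate 2, which began at 12481463 and 12481500. In the combined list 2 narrow regions of 1081 and 1237 bp (scores 0.35 and 0.28), found in neither replicate list, split it into the 220.8 kb stretch, one of 59.4 kb and a gap too short to count. As background, the bithorax complex, whose homeotic genes set the identity of posterior body segments and are a classic target of Polycomb repression in anterior tissue, lies in this part of 3R. That placement comes from general knowledge and could not be checked against an annotation of release 5 here. Whether Polycomb repression bears on this stretch was not tested. The third was at 17962373 to 18178929 (216.6 kb), with 219.9 and 219.8 kb in replicates 1 and 2.

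On 2L, the 3 longest were all in mid-arm by the 2 Mb rule. The longest, at 14690035 to 14965725 (275.7 kb), was 279.3 kb in replicate 1 and 279.2 kb in replicate 2, and its right border in the combined list was a 1171 bp region found in neither. The others were at 11589403 to 11803191 (213.8 kb, 214.7 ± 0.767 kb in the replicates) and at 20098013 to 20310513 (212.5 kb, 212.6 ± 0.0127 kb, SD, n = 2). The last of these has its middle base 2.81 Mb from the end of the arm.

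**Figure D3:**
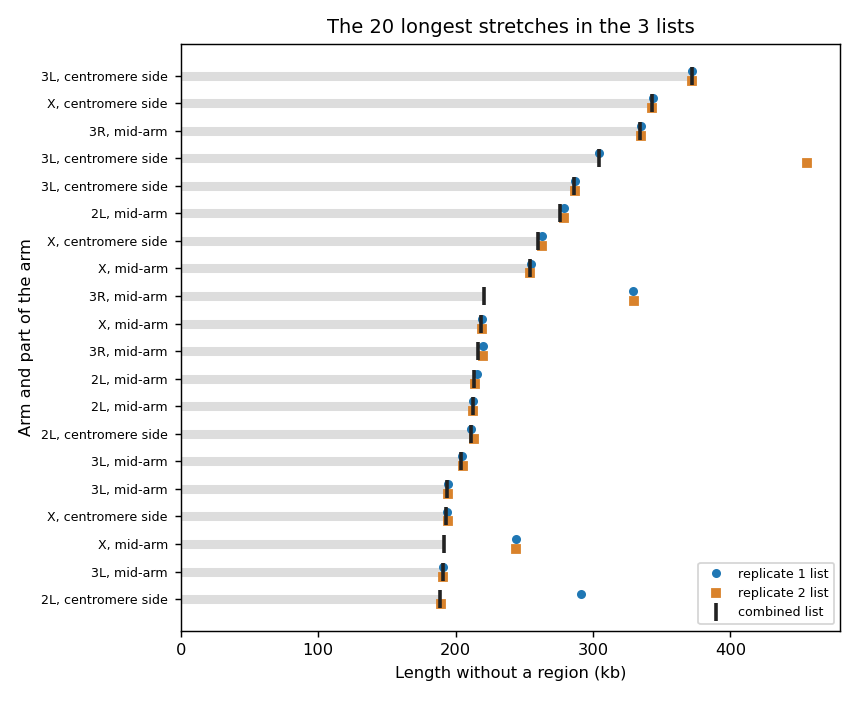
Length without a region in kb (horizontal axis) of the 20 longest stretches, each named by its arm and part of the arm. Grey bars and black ticks are the combined list, circles replicate 1 and squares replicate 2; the symbols coincide for most stretches, and the largest departure among the first 10 is the 3L stretch of 304.3 kb, which is 455.6 kb in replicate 2.

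Each of the 434 stretches was also at least 50 kb long in both replicate lists, and no replicate region lay wholly inside one. The lists come from the same libraries, by steps that the sources used here do not give, so this is no independent check. Replicate 1 regions reached into 77 stretches (17.7%) by a median of 17 bp and at most 393 bp, and replicate 2 regions into 79 (18.2%) by a median of 22 bp and at most 755 bp. In total 148 stretches were touched by at least 1 of the replicates, at their edges only. In both replicates, 237 stretches kept a length within 1% of that in the combined list. The median SD between the replicates was 0.167 kb, and 33 stretches had an SD above 10 kb. The largest SD, found by ranking after the values were seen, was 216.3 kb. It belonged to the 3L stretch at 24074709 to 24224273, which was 149.7 kb in replicate 1 and merged into the 455.6 kb stretch of replicate 2.

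Where the lists differed, narrow regions of the combined list were the divider. Of the 474 replicate 1 stretches, 154 (32.5%) had a combined region wholly inside, 214 regions in all, which were narrow (median 1478 bp) and low in score (median 0.38). Of these, 68.2% overlapped no region of either replicate, against 10.4% of all combined regions on the 4 arms. Of the 459 replicate 2 stretches, 134 (29.2%) had such a region, 177 in all (median 1445 bp), and 78.5% of them overlapped neither. A region inside a replicate's gap cannot overlap that replicate, so the higher share follows in part from the way they were found. In 54 replicate 1 stretches and 36 replicate 2 stretches no piece of 50 kb was left in the combined list.

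The regions at the borders were somewhat narrower and scored lower than other regions. The 434 stretches had 776 border regions, with a median width of 3394 bp (quartiles 2293 and 5815 bp). The 3500 regions that bordered no stretch had a median of 3737 bp (quartiles 2329 and 6641 bp). The quartile ranges overlap almost wholly, so the shift is small beside the spread of widths. In the replicate lists the medians were 3251 ± 11.7 bp at borders and 3806 ± 14.8 bp elsewhere (SD, n = 2), a gap larger than the spread between replicates. Regions of at least 10 kb were 7.73% of border regions and 11.9% of the others. Regions under 2 kb were about as frequent in either class, at 19.1% and 17.9%. Regions next to a border region, which border no stretch, were nearly as narrow in the combined list, with a median of 3467 bp. Their medians were 3449 and 3500 bp in replicates 1 and 2, against 3259.5 and 3243 bp at borders. A smaller width was thus not particular to the border regions themselves.

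The difference in width had the same sign on each arm in the combined list, but its size varied. Medians at borders and elsewhere were 3087 and 3505 bp on 2L, 3422 and 3811 bp on 3L, 3489 and 3745 bp on 3R and 3683 and 3994 bp on X. Regions of at least 10 kb were 18.9% of the X border regions and 18.1% of its other regions in the combined list. In the replicate lists they were the smaller share at X borders, with 9.42% against 15.4% in replicate 1 and 16.9% against 19.2% in replicate 2. The widest border regions were a 54.6 kb one on X (54609 bp), on the right of the stretch at 15520645 to 15590737, and one of 23331 bp on 3R, on the left of the stretch at 27656551 to 27759975. On 2L and 3L the widest were 17845 bp, beside the stretch at 18710669 to 18782595, and 16727 bp, beside that at 16414653 to 16475383. The widest X border region was 22426 bp in replicate 1, where no X region exceeded 32733 bp, and 54518 bp in replicate 2. In replicates 1 and 2 the widest were 16912 and 16954 bp on 3R, 20633 and 20223 bp on 2L, and 16629 and 16538 bp on 3L. The X stretch beside the 54.6 kb region was 70.1 kb long, and 102.7 kb in both replicates, and the score of that region was 2.00.

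The authors' score, which no source used here defines, had a median of 0.91 at borders and 1.16 elsewhere in the combined list. In the replicate lists it was 1.10 ± 0.021 at borders and 1.35 ± 0.044 elsewhere (SD, n = 2). Score and width both describe the same regions and are not separate evidence.

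Regions enclosed between 2 stretches were the narrowest. There were 92 of them. Their median width was 2888 bp, and that of the 684 regions bordering 1 stretch was 3450 bp. The median scores were 0.63 and 0.97. The replicates gave 2779 ± 11.3 bp for enclosed regions and 3374 ± 34.6 bp for those bordering 1 stretch (SD, n = 2). Of the 92, 8 (8.70%) were found in neither replicate, close to the 10.3% of regions that bordered no stretch, and 4 were at least 10 kb wide.

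**Figure D4:**
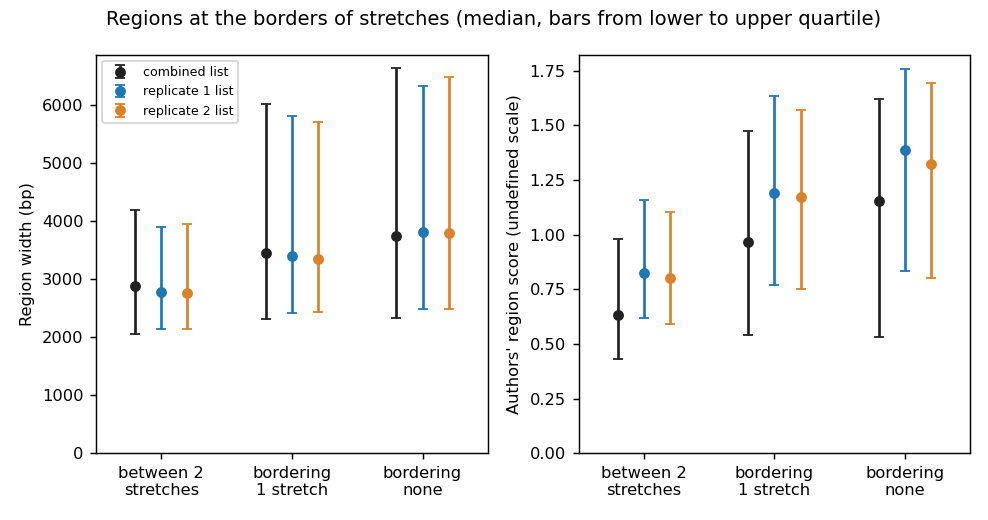
Region width in bp (left) and the authors' score (right) for regions between 2 stretches, bordering 1 stretch and bordering none, on the 4 arms together. Points are medians and bars run from the lower to the upper quartile, for the combined list and each replicate list; median width rises from 2888 to 3450 to 3737 bp in the combined list while the bars overlap.

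Border width showed little relation to the stretch itself. Medians were 3166 bp for stretches of 50 to 75 kb, 3440 bp for 75 to 100 kb, 3452 bp for 100 to 150 kb and 3536 bp beyond 150 kb. Across the 434 stretches the length and the mean width of both borders had a Spearman's rho of 0.090, and the left and right widths one of -0.025, given as descriptions since neighbouring stretches share border regions. The wider border of a stretch had a median of 5086 bp and the narrower one of 2359 bp. The median was 3248 bp for borders facing the centromere and 3441 bp for those facing the telomere. In the first 10 kb outside a stretch, where the border region itself lies, 51.7% of bases lay in combined regions. From 10 to 20 kb it was 24.98%, and from 20 to 50 kb, 21.8%. This compares with 22.6% over the whole arms, stretches included, and with 38.1% of all sequence outside stretches. Flanks can take in neighbouring stretches. In replicates 1 and 2 the flanks from 20 to 50 kb were covered to 19.8% and 19.9%, close to the 19.8% and 20.3% over the whole arms. All sequence outside stretches was covered to 36.4% and 36.7%, but that value leaves out every stretch, which the flanks do not.

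Stretches often followed one another. The next gap after a stretch was itself a stretch in 92 of 433 cases (21.2%), while 10.2% of all gaps were stretches. The share was 28.1% on 2L, 23.6% on 3L, 19.8% on X and 13.6% on 3R, each above the share of stretches among all gaps of the arm (11.7%, 10.9%, 9.15% and 9.15%). In replicates 1 and 2 it was 23.7% and 23.6%, against 12.1% and 11.6% of all gaps. In total 161 stretches (37.1%) stood in 69 runs of 2 or more. The longest run by number in the combined list had 5 stretches, on 2L from 1259641 to 1608531. The 4 regions between them covered 2.16% of 348.9 kb. One of these regions, of 1559 bp (score 0.098), was found in neither replicate. Replicate 1 had a single stretch there from 1258969 to 1419031 (160.1 kb), and replicate 2 one from 1259001 to 1501325 (242.3 kb). The run thus held fewer stretches in either replicate list. A run of 4 on 2L from 14410385 to 14965725 spanned 555.3 kb, of which 1.82% was covered. The runs named here were chosen after the values were seen.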

How the data were processed

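Chromatin from adult fly heads was sequenced after H3K4me2 ChIP. Per the file headers, the deposited files list enriched regions on FlyBase release 5, with 1 list for each ChIP replicate and 1 for both. Reads were aligned, per the submitters' processing notes, with Bowtie 0.12.7. No source used here gives the caller, its limits, the handling of repeats, how replicates were combined, or what the score is, which is used as deposited. Starts and ends in the combined list are all even numbers. An absent region is not an absent mark.

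Gaps, borders and overlaps (at least 1 bp) came from Python 3.11.15, using numpy 2.4.6, scipy 1.17.1 and pandas 2.3.3, and figures from matplotlib 3.10.9. Gaps at arm ends were left out. The centromere side is the high-coordinate end of 2L, 3L and X and the low-coordinate end of 3R. The random mean is a closed formula in the number of regions and uncovered bases of each arm, tested on simulated data. Named stretches are the 3 longest of each arm, the 2 longest outside its centromere side, the 2 shortest, and those with the widest border region, unless said otherwise. Members, rules and limits were chosen with earlier results of these data known. With 2 replicates, and members chosen by the lists themselves, no test was run. Arm 2R was not analysed here.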

Additional observations from a re-analysis of the deposited data

How the results depend on the processing

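The number of stretches (434) was 459 and 474 in the replicate lists taken alone, and was within 1.5 times the main count under 6 of 8 settings. It was 750 at a limit of 30 kb and 124 at 100 kb, as the limit itself dictates. The ratio to random placement (1.71) fell below 1 at a limit of 30 kb (0.958) and for the higher-scoring 50% of the combined list (0.816, 473 stretches against a mean of 579.4); the latter keeps fewer regions, which raises the random mean. It was 1.46 to 1.48 in the replicate lists, 1.44 without regions found in neither replicate, 1.30 without regions under 2 kb, 7.93 at 100 kb, 1.85 without the last 2 Mb of the centromere side and 1.62 within windows of 1 Mb.

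On 3R the share of bases in stretches was lower on the centromere side than in mid-arm (24.9% against 37.7%). This depended on the line at 2 Mb, since the centromere-side share on 3R was 36.6% with the last 3 Mb and 24.6% with the last 1 Mb. Pooled over the 4 arms, the share was higher on the centromere side by 21.1 percentage points. This was 16.0 to 17.0 in the replicate lists (16.05 and 16.97), 6.82 for the higher-scoring 50%, 18.4 without regions in neither replicate, 16.8 without those under 2 kb, 17.5 at 30 kb, 28.7 at 100 kb, and 28.7 and 16.7 for a centromere side of 1 and 3 Mb. The cause of the lower value among higher-scoring regions was not tested.

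The median border width minus that of other regions (-343 bp) was -552 and -556.5 bp in the replicate lists, -323 bp for the higher-scoring 50%, -376 bp without regions in neither replicate, -576 bp without those under 2 kb, -588 bp at 30 kb, -171 bp at 100 kb and -267 bp against all regions. The cause of these shifts was not tested. Stretches touched by a replicate region numbered 148, and 0 held one wholly inside. With the gaps at arm ends there were 435 stretches. No paired analysis was possible because the lists analysed hold ChIP regions alone, with no input value to pair with them. Sequence content and genes were not run for want of a genome of release 5. What read depth limits was not tested.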
